A study of Bos taurus with 179 samples.

Results

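BCAR4 and ACTL8 are a pair of oocyte transcripts followed here across the growth of the bovine oocyte, from below 60 to above 120 μm in diameter. They were picked by name, as the gene IDs that the study's supplementary tables pair with these symbols, ENSBTAG00000048279 for BCAR4 and ENSBTAG00000006438 for ACTL8, 2 of the 21218 gene IDs in the count table. Each stands on 1 line of that table. The study itself names both among the genes that increase with oocyte size in these same oocytes. The symbol of BCAR4 was taken from the study's table of expressed genes. That of ACTL8 was taken from its list of lowly expressed genes for the group below 60 μm. Both sources were drawn up by detection in these same oocytes. The relation of both genes to diameter is therefore a description, as is their detection. The tests of size groups given here are no independent evidence for that relation.

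BCAR4 (breast cancer anti-estrogen resistance 4) is best known in humans as a long noncoding RNA that makes breast cancer cells resistant to anti-estrogens, whereas in cattle it is an oocyte transcript described as coding for a protein of maternal effect, one that the egg stores for the first divisions of the embryo. ACTL8 (actin like 8) codes for a protein of the actin-like family and is known as a cancer/testis gene, one whose transcript is largely restricted to germ cells and tumours. During its growth the oocyte transcribes and stores mRNA, and transcription ceases as the oocyte reaches its full size. In the RefSeq gene table of a later assembly, ARS-UCD2.0, both are annotated as protein coding. There BCAR4 lies between ZC3H7A and RSL1D1, and ACTL8 lies next to ARHGEF10L.

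The samples were single denuded oocytes of Bos taurus from abattoir ovaries, of unstated breed and age and with no treatment compared, with the fully grown oocytes aspirated from surface follicles and the growing ones released from cortex sliced in cold medium that held cilostamide, a phosphodiesterase inhibitor. Of 179 oocytes deposited, 165 that the study lists after its quality control were used, 21 of them below 60 μm, 25 of 60–69 μm, 23 of 70–79 μm, 24 of 80–89 μm, 21 of 90–99 μm, 18 of 100–109 μm, 19 of 110–119 μm and 14 above 120 μm. They fall into 2 library replicates, 97 oocytes sequenced with reads of 150 bp (replicate 1) and 68 with reads of 75 bp (replicate 2), so batch and read length cannot be told apart. The animals are not named. The p-values measure the spread left between counts summed per size group and replicate, not that between single oocytes or animals. The total count per oocyte ranged from 277126 to 8038061, with a median of 1763520. Levels are in CPM, counts per 1000000 counts of a library, with its total first scaled by a normalization factor (TMM). Markers that could be paired with an ID were summed. Oocyte markers (4 of 10 paired: BMP15, BTG4, CPEB1 and BNC1) had group means of 5035 to 9383 CPM. Granulosa and cumulus markers (3 of 8) had 0.962 to 6.89 CPM and stroma and theca markers (4 of 5) 1.64 to 8.80 CPM. Endothelium markers (3 of 3) had 0.0901 to 0.869 CPM and immune markers (2 of 4) 38.4 to 115.7 CPM. No paired marker had 0 counts over all oocytes, and nearly all of the immune sum was CSF1R, which had a count in 165 of 165 oocytes.

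BCAR4 was detected in every oocyte, and its group medians lay between 51.6 and 98.6 CPM up to 110 μm and at 124.1 CPM or more beyond. At least 1 count was present in 165 of 165 oocytes (100%, exact binomial 95% interval 97.8 to 100%), also when each oocyte was thinned to 250000 counts. ACTL8 was a low transcript, present in 116 of 165 oocytes (70.3%, interval 62.7 to 77.2%). These intervals treat the oocytes as independent draws, which is not known since their animals are not named, and cover that sampling error only. All counts together were 35238 for BCAR4 and 2988 for ACTL8. CPM here is relative to an oocyte's total count times its TMM factor. It is neither a plain share of the counts nor an amount per oocyte. The oocyte of 111.95 μm, with 977 BCAR4 counts in a total of 3995248, stood at 405.4 CPM. The 2 genes are not compared in level because their lengths were not at hand.

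For BCAR4, the median over the oocytes of a size group was 63.7 CPM below 60 μm (16.5 to 130.0). It was 98.6 CPM in oocytes of 60–69 μm, which ranged from 24.5 to 175.3, and 51.6 CPM in those of 70–79 μm, which ranged from 28.5 to 128.9. The next medians were 76.5 CPM (80–89 μm, range 25.6 to 165.9), 75.7 CPM (90–99 μm, range 32.5 to 136.8) and 78.8 CPM (100–109 μm, range 38.8 to 175.2). These 6 groups overlapped widely, and none of their medians lay outside the range of another. At 110–119 μm the median was 196.5 CPM (116.3 to 488.9) and above 120 μm it was 124.1 CPM (83.9 to 277.04). Among the 33 oocytes of 110 μm and more, 16 were above the highest of the smaller ones (175.3 CPM), and all 33 were above the median of the smaller ones (74.3 CPM). The size boundary of 110 μm was chosen for this description after the values were seen.

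**Figure D1:**
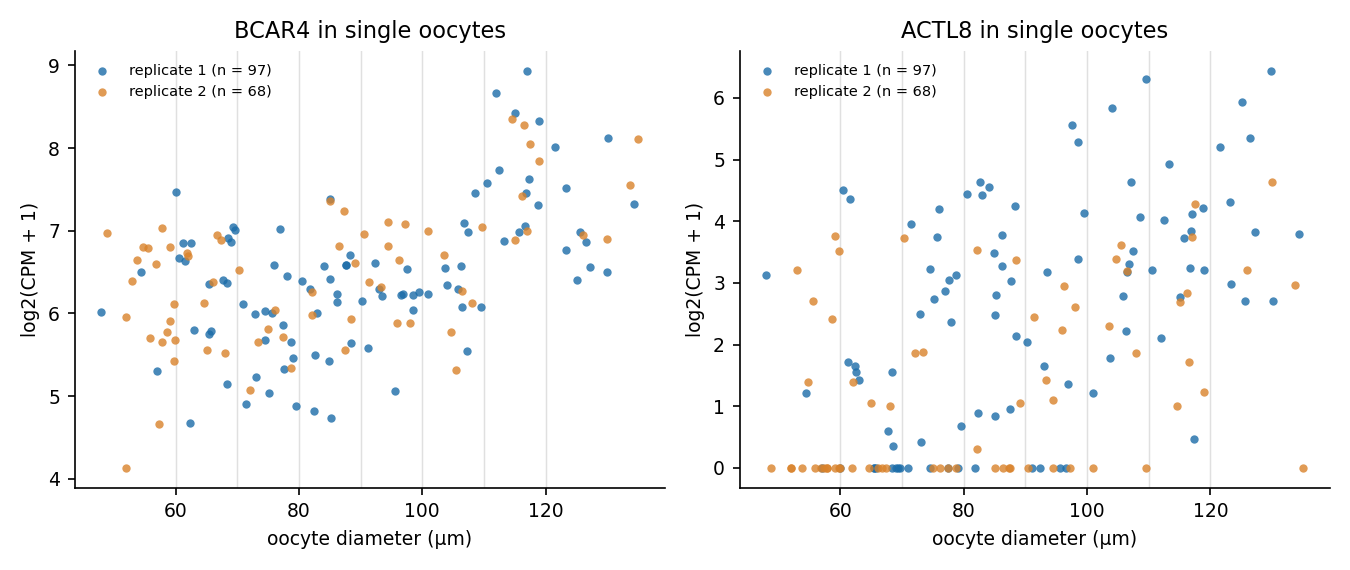
Each point is 1 oocyte, with its diameter in μm on the x axis and log2(CPM + 1) on the y axis, for BCAR4 (left) and ACTL8 (right), coloured by library replicate; vertical lines mark the bounds of the size groups. BCAR4 was above 0 in all 165 oocytes and its highest values lay beyond 110 μm, while the 49 oocytes without a count of ACTL8 lie along the bottom of the right panel.

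Counts were added up over the oocytes that share a size group and a replicate, and the 16 resulting sums were compared with edgeR's quasi-likelihood test with the replicate as a block. The BCAR4 sums of replicates 1 and 2 were 66.1 and 66.8 CPM below 60 μm, 85.8 and 89.3 CPM at 60–69 μm, 59.3 and 54.8 CPM at 70–79 μm, and 76.9 and 91.6 CPM at 80–89 μm. They were 70.5 and 91.5 CPM at 90–99 μm, 74.7 and 86.9 CPM at 100–109 μm, 231.0 and 231.99 CPM at 110–119 μm, and 124.2 and 188.2 CPM above 120 μm. The TMM factors of the sums were lowest at 110–119 μm (0.858 and 0.914), against 1.07 and 1.02 at 100–109 μm. A lower factor gives a higher CPM. The pairs of sums were close in most groups and farthest apart above 120 μm. Ordered by their mean, the groups ran from 70–79 μm (57.0 CPM) and below 60 μm (66.5 CPM) through 100–109 μm (80.8 CPM), 90–99 μm (81.0 CPM), 80–89 μm (84.3 CPM) and 60–69 μm (87.5 CPM) to above 120 μm (156.2 CPM) and 110–119 μm (231.5 CPM). The 4 groups from 80.8 to 87.5 CPM had sums that overlapped with those of their neighbours in this order, and the remaining neighbours did not overlap.

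BCAR4 rose between 100–109 and 110–119 μm by 1.52 on the log2 scale (SE 0.26, 2.88-fold, adjusted p = 0.0283), in both replicates, by 3.09-fold in replicate 1 and 2.67-fold in replicate 2. In this comparison 3.88% of the 14087 genes tested were called, 1.89% in this direction. The log2 fold change was 1.52 without the replicate block, but the adjusted p was then 0.835; it was 0.276 without the sum of 100–109 μm replicate 1 (log2 fold change 1.53) and 0.325 without the sum of 110–119 μm replicate 1 (1.40). The call was also lost with all 179 oocytes (1.58, adjusted p = 0.0543) and with only the groups compared in the fit (1.505, adjusted p = 0.101). Above 120 μm BCAR4 was also higher than below 60 μm, by 1.21 (SE 0.26, 2.32-fold, adjusted p = 0.00385), where 19.2% of the genes were called and 9.36% in this direction. Without the replicate block the log2 fold change was 1.23 and the adjusted p 0.147.

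None of the other 6 comparisons was called for BCAR4. Few genes were: 0.0142% from below 60 to 60–69 μm, 0.135% from below 70 to 70–79 μm, 0.0% at 80–99 against 70–79 μm and at 90–99 against 80–89 μm, 0.497% at 100–109 against 80–99 μm and 0.0071% above 120 against 110–119 μm. Where edgeR called none, 780 genes (80–99 against 70–79 μm) and 469 genes (90–99 against 80–89 μm) had an unadjusted p below 0.05, and DESeq2 called 17 and 0. From 110–119 μm to above 120 μm the log2 difference was -0.59 (SE 0.26, p = 0.0355 before and 0.439 after adjustment), and the value was negative in both replicates, at 0.538 and 0.811 of the smaller oocytes' level. Between 70–79 and 80–99 μm it was 0.52 (SE 0.23, adjusted p = 0.866), from below 70 to 70–79 μm it was -0.41 (SE 0.23, adjusted p = 0.717), and from below 60 to 60–69 μm it was 0.40 (SE 0.26, adjusted p = 1.0). The differences between 80–89 and 90–99 μm (-0.06, SE 0.26) and between 80–99 and 100–109 μm (-0.03, SE 0.22) were smaller than their errors.

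**Figure D2:**
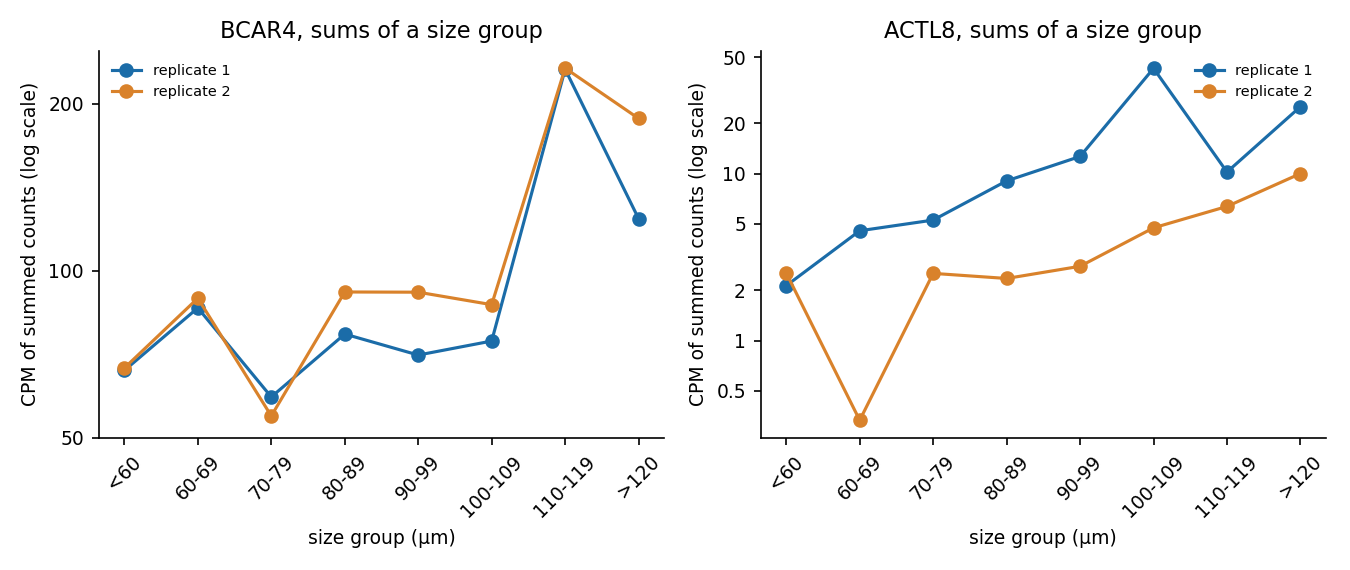
Summed counts of each size group in CPM on a log axis, for BCAR4 (left) and ACTL8 (right), with 1 point per library replicate and size groups in μm on the x axis. Both BCAR4 sums of 110–119 μm stand at 231.0 and 231.99 CPM, above all other groups, and the ACTL8 sums of replicate 1 lie above those of replicate 2 in 7 of 8 groups.

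The correlation of BCAR4 with diameter is given as a description. Over all 165 oocytes, Pearson's r of log2(CPM + 1) with diameter was 0.51 and Spearman's rho 0.46 (both with replicate means taken out). The r was 0.51 in replicate 1 and 0.53 in replicate 2. Below 110 μm it was 0.15, and from 110 μm on it was -0.31 (33 oocytes), with -0.41 in replicate 1 and -0.12 over the 11 oocytes of replicate 2. The split at 110 μm follows the values, since it starts at the group with the highest level, and the difference between the 2 sides was not tested. By this r, BCAR4 took place 533 of 14087 genes. The points share their library batch, and oocytes of 1 animal could be among them.

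ACTL8 was found in a larger share of the larger oocytes. Its symbol came from a list that the study drew up by counts of 0 in these same oocytes. A low share below 60 μm was thus a condition of that list, and the shares are given as a description. A count was present in 8 of 21 oocytes below 60 μm (38.1%), in 12 of 25 at 60–69 μm (48.0%), in 15 of 23 at 70–79 μm (65.2%) and in 19 of 24 at 80–89 μm (79.2%). The next groups had it in 14 of 21 at 90–99 μm (66.7%), in 16 of 18 at 100–109 μm (88.9%), in 19 of 19 at 110–119 μm (100%) and in 13 of 14 above 120 μm (92.9%). Oocytes at 0 outnumbered those with a count only in the 2 smallest groups, 13 of 21 and 13 of 25. These shares pool replicates in unequal parts, since 18 of the 21 oocytes below 60 μm were of replicate 2 and 10 of the 14 above 120 μm of replicate 1. Within replicate 1 the share was 66.7% below 60 μm (2 of 3) and 100% above 120 μm (10 of 10), and within replicate 2 it was 33.3% (6 of 18) and 75.0% (3 of 4).

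The group with the fewest detections had the deepest libraries. The median total was 2563427 counts below 60 μm, 923622 at 100–109 μm and 1457610 above 120 μm. With each oocyte thinned to 250000 counts, ACTL8 was present in 4, 7, 11, 14, 9, 14, 14 and 11 oocytes of the 8 groups in order of size, which is 19.0% below 60 μm and 78.6% above 120 μm, and 50.9% over all. No oocyte was too shallow for this. At that depth, ACTL8 was present below 60 μm in 0 of 3 oocytes of replicate 1 and 4 of 18 of replicate 2. Above 120 μm it was present in 8 of 10 and 3 of 4. More than 1 count of ACTL8 was present in 104 of 165 oocytes as deposited (63.0%).

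The replicates differed for ACTL8. A count was present in 79 of 97 oocytes of replicate 1 (81.4%) and in 37 of 68 of replicate 2 (54.4%), although the median totals were 1764849 and 1761715. In 6 of 8 groups the share as deposited was higher in replicate 1, and in 2 it was equal. The sum in CPM was higher in replicate 1 in 7 of 8 groups, with a median ratio of 3.11 (0.840 to 13.7). For BCAR4 the sum was higher in replicate 1 in 1 of 8 groups, with a median ratio of 0.909. What part read length has in this was not tested.

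**Figure D3:**
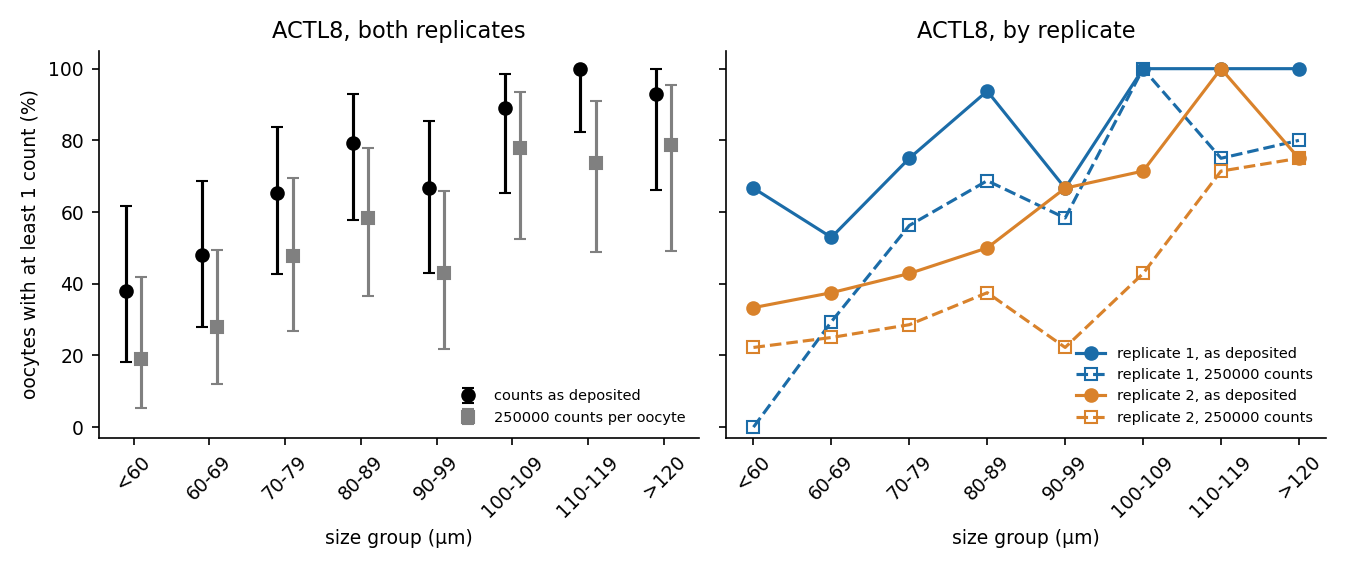
Share of oocytes with at least 1 count of ACTL8, in percent, by size group in μm. Left, both replicates together, as deposited (black) and at 250000 counts per oocyte (grey), with exact binomial 95% intervals; right, each replicate. The share as deposited was 38.1% below 60 μm and 92.9% above 120 μm, and replicate 2 was then at or below replicate 1 in every group. At 250000 counts, replicate 2 was above replicate 1 below 60 μm (22.2% against 0%).

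The ACTL8 sums of replicates 1 and 2 were 2.13 and 2.54 CPM below 60 μm, 4.55 and 0.333 CPM at 60–69 μm, 5.27 and 2.53 CPM at 70–79 μm, and 9.05 and 2.35 CPM at 80–89 μm. They were 12.7 and 2.79 CPM at 90–99 μm, 42.8 and 4.74 CPM at 100–109 μm, 10.2 and 6.36 CPM at 110–119 μm, and 25.2 and 10.02 CPM above 120 μm. Only the group below 60 μm had its higher sum in replicate 2. Ordered by the mean of the 2 sums, ACTL8 ran from below 60 μm (2.33 CPM) and 60–69 μm (2.44 CPM) through 70–79 μm (3.90 CPM), 80–89 μm (5.70 CPM), 90–99 μm (7.73 CPM) and 110–119 μm (8.30 CPM) to above 120 μm (17.6 CPM) and 100–109 μm (23.8 CPM). Every group overlapped with its neighbour in this order.

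The place of 100–109 μm at the top of that order rests on 1 oocyte. This oocyte of replicate 1 measured 109.57 μm and had the deepest library of its group, 7856854 counts or 52.9% of its sum. It gave 574 of the 682 ACTL8 counts of the sum (84.2%), at 78.2 CPM. Without it, by plain totals, the sum would stand at 15.5 CPM. Its BCAR4 level, 66.8 CPM, was within the range of its group.

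ACTL8 was higher above 120 μm than below 60 μm, by 2.46 on the log2 scale (SE 0.68, 5.49-fold, adjusted p = 0.0168), by 11.8-fold in replicate 1 and 3.95-fold in replicate 2. Without the replicate block the log2 fold change was 2.92, with an adjusted p of 0.31. The adjusted p was 0.151 without the 3 oocytes of replicate 1 below 60 μm (log2 fold change 1.69) and 0.0668 without the 4 of replicate 2 above 120 μm (2.34). With 250000 counts per oocyte the log2 fold change was 2.94 (adjusted p = 0.00255). Single oocytes weighed heavily in these sums. Above 120 μm the oocyte with the most ACTL8 counts gave 43.9% of the sum in replicate 1 and 67.4% in replicate 2. Below 60 μm it gave 72.4% in replicate 1 and 30.0% in replicate 2.

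No step between successive groups was called for ACTL8. The largest was from 80–99 to 100–109 μm, at 1.63 (SE 0.53, p = 0.00618 before and 0.152 after adjustment), in a comparison with 0.497% of genes called. This step was called without the filter on low counts (1.66, adjusted p = 0.0387) and with only the groups compared in the fit (1.52, adjusted p = 0.00938). Without the oocyte of 109.57 μm this value was 0.60 (adjusted p = 0.717). From 100–109 to 110–119 μm the value was -0.98 (SE 0.65, adjusted p = 0.354), with that oocyte left out 0.05 (adjusted p = 0.976). From below 60 to 60–69 μm the fitted value was -0.75 (SE 0.67), but the replicates went opposite ways, to 2.13 times the level below 60 μm in replicate 1 and 0.131 times in replicate 2, and the means of the sums were 2.33 and 2.44 CPM (adjusted p = 1.0). The remaining steps were 0.72 (SE 0.56) from below 70 to 70–79 μm, 0.54 (SE 0.58) to 80–99 μm, 0.38 (SE 0.64) between 80–89 and 90–99 μm and 0.93 (SE 0.66) from 110–119 to above 120 μm, and the adjusted p of these 4 steps ranged from 0.581 to 1.0.

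**Figure D4:**
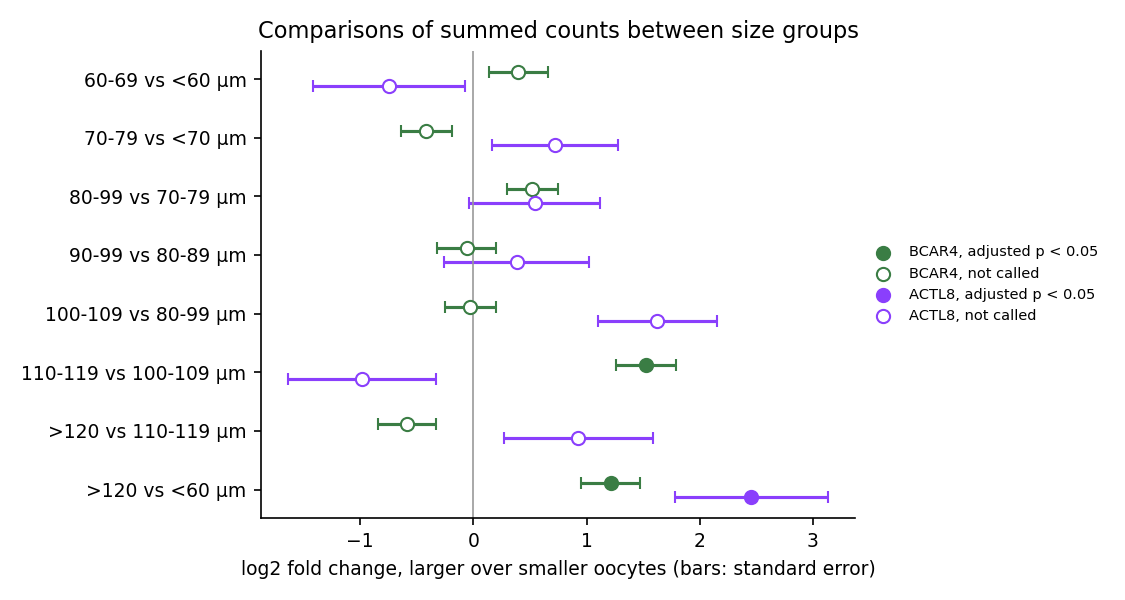
Log2 fold changes (larger over smaller oocytes) of BCAR4 and ACTL8 in 8 comparisons of summed counts, with bars of 1 standard error; filled points have an adjusted p below 0.05. BCAR4 was called at 110–119 against 100–109 μm (1.52) and both genes at above 120 against below 60 μm (1.21 and 2.46).

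Among single oocytes, high ACTL8 levels were scattered through the larger groups. The median was 0 CPM in both groups below 70 μm, 2.69 CPM at 70–79 μm, 5.31 CPM at 80–89 μm and 2.16 CPM at 90–99 μm. It was 8.11 CPM at 100–109 μm, 8.24 CPM at 110–119 μm and 13.01 CPM above 120 μm. The highest oocyte of a group had 12.5 CPM below 60 μm, 21.8 CPM at 60–69 μm, 17.3 CPM at 70–79 μm and 23.8 CPM at 80–89 μm. It had 46.0 CPM at 90–99 μm, 78.2 CPM at 100–109 μm, 29.4 CPM at 110–119 μm and 85.9 CPM above 120 μm. More than 20 CPM was present in 0, 1, 0, 4, 2, 3, 1 and 5 oocytes of the 8 groups in order of size. Of these 16 oocytes 15 were of replicate 1, which held 3 of the 21 oocytes below 60 μm, and 1 was of replicate 2, above 120 μm. The spread of the levels relative to their mean (CV) was 1.07 above 120 μm and 0.765 at 110–119 μm, against 0.440 and 0.462 for BCAR4, counting error included in each.

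Pearson's r of ACTL8 with diameter was 0.46 (rho 0.44) over 165 oocytes, 0.51 in replicate 1 and 0.41 in replicate 2. It was 0.33 below 110 μm and 0.17 from 110 μm on. By this r, ACTL8 took place 743 of 14087 genes. From 110 μm on it was 0.31 in replicate 1 and -0.047 in replicate 2.

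The levels of the 2 genes were also set against each other within size groups, in each replicate. With means of size group and replicate taken out, Pearson's r between them was -0.11 and rho -0.15 over 165 oocytes, with an r of -0.0012 (rho -0.012) in replicate 1 and -0.29 (rho -0.36) in replicate 2. Of 14 sets of oocytes of 1 size group and replicate, r was positive in 5, and it ranged from -0.86 (100–109 μm, replicate 2) to 0.38 (90–99 μm, replicate 1), with a median of -0.22. With only the replicate means removed, so that differences between size groups entered, r was 0.15. These r were not tested and rest on sparse counts of ACTL8, so no relation between the genes is drawn from them.

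The BCAR4 level was also set against the presence of ACTL8. Of 12 sets that held oocytes with and without a count of ACTL8, the median BCAR4 level was higher in those with ACTL8 in 5, which were 4 of 5 sets of replicate 1 and 1 of 7 of replicate 2. The median total was higher in 8 of the 12. In replicate 1 at 60–69 μm, BCAR4 was at 98.6 CPM in the 9 oocytes with ACTL8 and 98.3 CPM in the 8 without, and their median totals were 3901224 and 849678 counts. In replicate 2 at 80–89 μm it was at 68.9 CPM in 4 oocytes with and 130.9 CPM in 4 without. Above 120 μm, the 1 oocyte with no count of ACTL8 had 275.1 CPM of BCAR4, and the oocyte with the most ACTL8, 85.9 CPM, had 89.7 CPM of BCAR4.

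**Figure D5:**
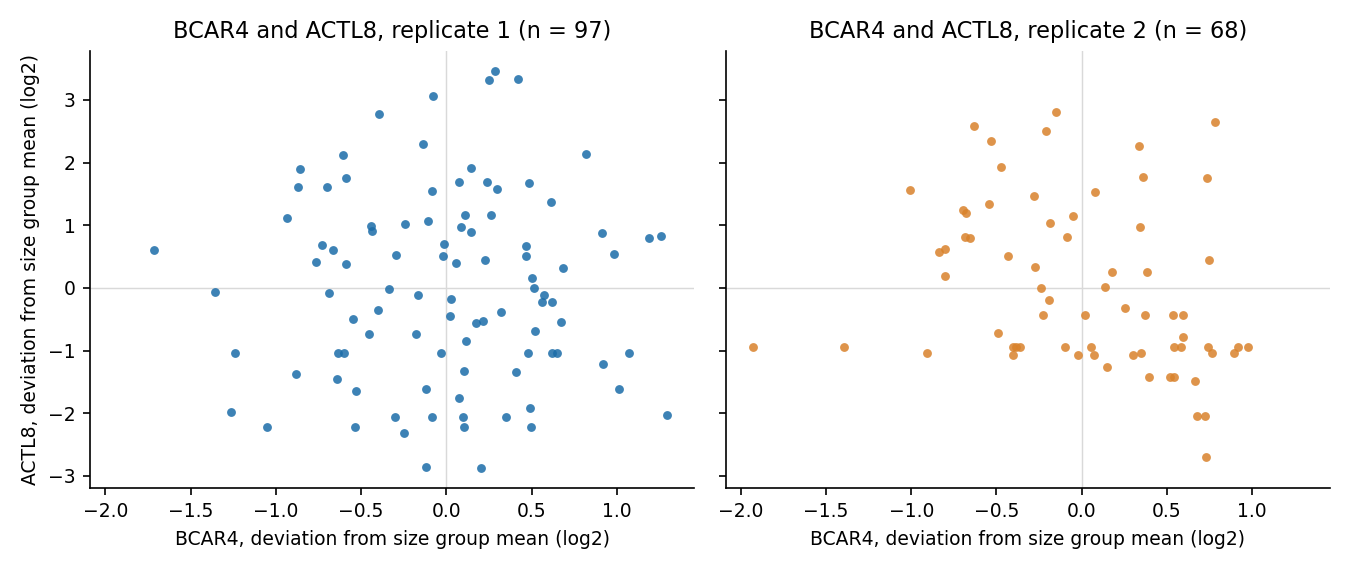
Each point is 1 oocyte; the x axis gives BCAR4 and the y axis ACTL8, as the deviation of log2(CPM + 1) from the mean of the size group in that replicate. The clouds had an r of -0.0012 in replicate 1 (97 oocytes) and -0.29 in replicate 2 (68 oocytes).

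The genes with the pattern most like BCAR4, by Pearson's r over 165 oocytes after removal of the replicate means, were ENSBTAG00000027348 (0.70) and ENSBTAG00000023666 (0.69), which carry no symbol in the tables used. Symbols were at hand for 3608 gene IDs only, 80.3% of them starting with A, B or C because the copies of the tables used here were cut short, so the closest genes with a symbol are those of this subset. They were ARMC2, an armadillo repeat protein (0.66), CASP1, the caspase that matures interleukin-1β (0.64), ANAPC13, a subunit of the anaphase-promoting complex (0.62), CKS1B, a regulatory subunit of cyclin-dependent kinases (0.61), and CNIH4, a cargo receptor of the endoplasmic reticulum (0.61). With the size group means removed as well, the r of CASP1 was 0.40 and that of ARMC2 0.47. An r above 0.5 with BCAR4 was found for 173 of the 14086 other genes.

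For ACTL8 the closest were ENSBTAG00000021787 (0.58) and ENSBTAG00000008638 (0.57), and in the same subset with a symbol BUD23, a methyltransferase of ribosomal RNA (0.51), CCDC61, a centriole protein (0.50), C29H11orf24 (0.50), LAD1, the filament protein ladinin (0.49), and BPHL, a hydrolase (0.49). Only 20 of 14086 genes had an r above 0.5 with ACTL8. ACTL8 took place 2981 among the genes like BCAR4, and BCAR4 place 3755 among those like ACTL8.

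The other actin genes were counted in the same comparisons. Of 26 actin and actin-related genes other than ACTL8, 20 could be paired with an ID and 15 were tested; above 120 against below 60 μm none was higher, 1 was lower (9.8% of all genes were called lower) and 14 were not called, with a median log2 fold change of -0.27 against -0.12 for all genes. DESeq2 called 2. ACTG1, cytoplasmic γ-actin, fell by 1.77 (SE 0.32, adjusted p = 0.000935). ACTB, cytoplasmic β-actin, was at -0.21 (SE 0.35, adjusted p = 0.716). ACTA2, smooth muscle actin, was at -1.003 (SE 0.84), ACTR3B, a variant subunit of the Arp2/3 complex, at -0.79 (SE 0.65), and ACTR8, of the INO80 chromatin remodeller, at 0.76 (SE 0.29, adjusted p = 0.0712). ACTL6B had no count below 60 μm and a mean of 0.477 CPM above 120 μm (adjusted p = 0.132). Actins are near-identical in sequence, and how the counting treated reads shared between them is not known, so their split is uncertain.

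The step from 100–109 to 110–119 μm, at which BCAR4 rose, called 1 of the 15 family members, where 3.88% of all genes were called. This was ACTR6, of the SRCAP chromatin remodeller, which rose by 1.12 (SE 0.29, adjusted p = 0.045) and is named here after its values were seen. The Arp2/3 complex, which nucleates branched actin filaments, had 10 of 10 members tested and none called in either comparison by edgeR (2 and 1 at an unadjusted p below 0.05; DESeq2 called 1 in each), with median log2 fold changes of -0.08 (above 120 against below 60 μm) and 0.21. Of 17 actin-binding genes tested (18 of 19 paired), 3 were lower above 120 than below 60 μm and none was higher, where 9.8% of all genes were lower and 9.36% higher. They were ABLIM1 (-1.002), the α-actinin ACTN4 (-1.17) and CORO1C (-1.14), named after their values were seen, and the list's median log2 fold change was -0.34 against -0.12 for all genes. At 110–119 against 100–109 μm edgeR called none of the 17 (7 at an unadjusted p below 0.05, as were 3667 of the 14087 genes; DESeq2 called 3), with a median of -0.49 against -0.058 for all genes.

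BCAR1 and BCAR3 share the name of BCAR4 from screens for resistance to anti-estrogens and not its sequence. BCAR3, an adaptor protein, was higher above 120 than below 60 μm by 1.24 (SE 0.40, adjusted p = 0.0369), with group means of 9.14 and 20.0 CPM. BCAR1, the scaffold p130Cas, was at 0.90 (SE 0.58, adjusted p = 0.297). Neither was called at 110–119 against 100–109 μm, where BCAR3 was at 0.01 and BCAR1 at -1.22.

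Of 27 oocyte genes, the 5 that could be paired all have symbols starting with A, B or C, as the tables used here were cut short, and all 5 were tested. Above 120 against below 60 μm, 2 were higher (9.36% of all genes were), none was lower and 3 were not called, with a median log2 fold change of 0.95 against -0.12 for all genes. AURKC, a kinase of meiotic chromosome segregation, was higher by 1.67 (SE 0.30, adjusted p = 0.000881), and BMP15, a growth factor of the oocyte, by 1.29 (SE 0.40, adjusted p = 0.03). BTG4, needed for maternal mRNA clearance, was at 0.95 (adjusted p = 0.0553), CPEB1, which controls polyadenylation of stored mRNA, at 0.17 (adjusted p = 0.749), and BNC1 at -1.05 (adjusted p = 0.0625). At 110–119 against 100–109 μm edgeR called none of the 5 (2 at an unadjusted p below 0.05; DESeq2 called 2), and the median was -0.27. BTG4 was at 1.11 (SE 0.34, adjusted p = 0.0636) and CPEB1 at -0.88 (SE 0.32, adjusted p = 0.0969), while BMP15 was at -0.32, AURKC at -0.27 and BNC1 at -0.22 (adjusted p from 0.582 to 0.741).

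Beside the higher levels of both genes above 120 μm, markers of other cells stood as follows. HSD17B1, of granulosa cells, was lower above 120 than below 60 μm (-3.02, adjusted p = 0.00852). FSHR, with 191 counts in all, was not called there (fitted log2 fold change 0.16, SE 1.61, adjusted p = 0.959), and its group means over oocytes were 1.202 CPM below 60 μm and 0.414 CPM above 120 μm. COL1A2, a collagen used as a stroma marker, was higher (3.20, adjusted p = 0.0055), with group means of 1.49 and 8.75 CPM, while COL1A1 had counts in 2 of 165 oocytes and COL3A1 in 4. At 110–119 against 100–109 μm, CSF1R was lower (-1.39, adjusted p = 0.0396). FSHR had a mean of 0.992 CPM at 100–109 μm and no count at 110–119 μm (adjusted p = 0.0677), and the summed granulosa and cumulus markers stood at 2.79 and 0.975 CPM. The part of these markers in the results was not tested.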

How the data were processed

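Polyadenylated mRNA of single oocytes was captured on oligo-dT beads, amplified by Smart-seq2 and sequenced, so transcripts with short poly(A) tails can be missed. The authors trimmed reads (Trim Galore 0.6.6, per the labels), aligned them with HISAT2 to ARS-UCD1.2 and counted them per gene in SeqMonk. What they deposited is a table of raw counts per gene and oocyte (0 columns unused). Lines that share an ID (3622 of 23161) were summed. Strand and multi-mapped reads: not given in the sources used here. The 165 oocytes of the study's quality table were used.

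Counts were summed per size group and replicate (16 sums), filtered (filterByExpr, minimum count 10, total 15, 14087 genes), scaled by TMM and tested with edgeR 4.0.16 (quasi-likelihood, replicate block, Benjamini-Hochberg over all genes within a comparison, called below 0.05; not adjusted over the 8 comparisons). Same-numbered sums come from 1 library batch, and their deviations correlated in all 28 pairs (0.398 to 0.694), so the number pairs them. The SE is the log2 fold change divided by the square root of F. CPM per oocyte used TMM effective library sizes, log2 values a pseudocount of 1. Scripts were tested on simulated data. Software: R 4.3.3, DESeq2 1.42.0, Python 3.11.15, matplotlib 3.10.9, scipy 1.17.1, pandas 2.3.3.

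The members and gene lists were chosen with earlier results of these data known. Symbols came from copies of the study's supplementary tables that were cut short here; they pair 3608 IDs, 80.3% with symbols starting with A, B or C, so most other genes could be neither named nor listed. Named genes were, for each member, the 5 genes with a symbol and 2 IDs of highest r across oocytes. Further ones were ACTB, ACTG1 and the 4 other actin family members with the largest change between above 120 and below 60 μm. BCAR1, BCAR3 and each paired oocyte gene were named too. Outside this rule, ACTR6, ABLIM1, ACTN4 and CORO1C were named after their values were seen. HSD17B1, FSHR, COL1A1, COL1A2, COL3A1 and CSF1R were taken from the marker lists. Alternatives were no replicate block, RLE factors, DESeq2, no filter, single oocytes as units, 250000 counts per oocyte, all 179 oocytes, only the groups compared and each sum left out; for values per oocyte, other pseudocounts, plain totals, each replicate alone and subsets by diameter. The fit without the deepest oocyte of 100–109 μm and the splits at 110 μm were chosen after seeing the data.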

Additional observations from a re-analysis of the deposited data

Results flagged for a closer look

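Of 16 sets of 4 to 10 oocytes (1 size group, 1 replicate, 1 gene) tested for a single value far from the others, 1 stood out, and chance gives about 1 in 20. It was ACTL8 in replicate 2 at 70–79 μm, where the highest of 7 oocytes had 12.2 CPM (31 counts), the next had 2.69 CPM and 4 had none. That oocyte also had the highest BCAR4 level of its set, 90.8 CPM.

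The 14 oocytes outside the study's quality table were left out of the comparisons, apart from the alternative with all 179 oocytes. A count of BCAR4 was present in 9 of them, and 1 above 120 μm in replicate 1 had 909 BCAR4 counts in a total of 3663922. A count of ACTL8 was present in 2 of them, an oocyte of 102.46 μm with 16 counts and one of 139.09 μm with 9. The 5 oocytes with no count of BCAR4 had totals of 10 to 143505 counts.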

How the results depend on the processing

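The 16 log2 fold changes of BCAR4 and ACTL8 were refitted 400 times in all. Of these refits, 370 kept their direction and side of the threshold, 9 lost and 2 gained a call and 19 turned in sign. A refit with no adjusted p, as for BCAR4 above 120 against 110–119 μm in DESeq2, was counted as not called. Every turn in sign was in a comparison that was not called. Without the replicate block the BCAR4 log2 fold changes were 1.52 at 110–119 against 100–109 μm and 1.23 above 120 against below 60 μm, and that of ACTL8 was 2.92 above 120 against below 60 μm, none of them called (adjusted p = 0.835, 0.147 and 0.31 in edgeR), and ACTL8 at 60–69 against below 60 μm was 0.079. At 110–119 against 100–109 μm, BCAR4 was 1.58 with all 179 oocytes (adjusted p = 0.0543) and 1.505 with only the groups compared (adjusted p = 0.101). At 100–109 against 80–99 μm, ACTL8 was called at 1.66 without the filter (adjusted p = 0.0387) and at 1.52 with only the groups compared (adjusted p = 0.00938), which left fewer sums in the fit. With 250000 counts per oocyte, BCAR4 was 0.17 at 90–99 against 80–89 μm and 0.15 at 100–109 against 80–99 μm. ACTL8 was then -0.095 at 80–99 against 70–79 μm and -0.24 at 90–99 against 80–89 μm. It was 1.71 at 70–79 against below 70 μm and 0.84 at 100–109 against 80–99 μm. With single oocytes as units, the same BCAR4 comparisons gave 0.0027 and 0.14. Without the deepest oocyte of 100–109 μm, BCAR4 was 0.12 at 100–109 against 80–99 μm and ACTL8 0.048 at 110–119 against 100–109 μm. The cause was not tested.

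With 1 sum left out, BCAR4 ranged from 1.40 to 1.68 at 110–119 against 100–109 μm, from 1.08 to 1.46 above 120 against below 60 μm, from -0.15 to 0.048 at 90–99 against 80–89 μm and from -0.073 to 0.063 at 100–109 against 80–99 μm. ACTL8 ranged from 1.69 to 3.97 above 120 against below 60 μm and from -1.61 to 0.081 at 110–119 against 100–109 μm. At 60–69 against below 60 μm it ranged from -2.29 to 0.62, and at 100–109 against 80–99 μm from 0.57 to 2.25. At 70–79 against below 70 μm it ranged from 0.32 to 1.55, and at 80–99 against 70–79 μm from 0.18 to 0.95. At 90–99 against 80–89 μm it ranged from 0.054 to 0.66, and above 120 against 110–119 μm from 0.38 to 1.48. The lone sum is then assumed to vary like the other groups.

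The r of BCAR4 with diameter was 0.49 with plain totals, 0.47 with all 179 oocytes, 0.50 without the 2 farthest oocytes, 0.49 at 250000 counts and 0.65 from 70 μm on. Below 110 μm it was 0.15 (0.10 and 0.20 in replicates 1 and 2), and from 110 μm on -0.31 (-0.41 and -0.12). That of ACTL8 was 0.38 at 250000 counts, 0.33 below 110 μm (0.25 in replicate 2) and 0.17 from 110 μm on (0.31 and -0.047). The r between the genes was 0.15 with only replicate means removed. BCAR4 was detected in 97.2% of all 179 oocytes. ACTL8 was detected in 50.9% of oocytes at 250000 counts, 81.4% of replicate 1 and 54.4% of replicate 2. By group, replicate 1 had it in 66.7% below 60 μm, 93.8% at 80–89 μm, 100% at 100–109 μm and 100% above 120 μm, and replicate 2 in 50% at 80–89 μm. At 250000 counts it was in 42.9% at 90–99 μm and 73.7% at 110–119 μm.

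For the gene lists 3 alternatives were run, without the block, with RLE factors and with DESeq2. Without the replicate block, 0 genes were called in the actin family (1 in each comparison with it), 0 of the actin-binding genes (3 with it) and 0 of the BCAR, oocyte, oocyte marker, granulosa, stroma and immune lists. DESeq2 called 2 of the actin family in each comparison, 1 of the Arp2/3 complex in each, 3 of the actin-binding genes at 110–119 against 100–109 μm, and of the oocyte genes 2 there and 4 above 120 against below 60 μm (oocyte markers 2 and 3; 2 with RLE factors in the latter). Over all genes, the 547 calls at 110–119 against 100–109 μm were 0 without the block (edgeR, 647 at an unadjusted p below 0.05), 1967 with DESeq2, 1317 without the filter, 2 with all oocytes and 22 with only the groups compared, and the 2700 calls above 120 against below 60 μm were 81 without the block, 1589 with only the groups compared and 5297 with single oocytes. ACTL8 below 60 μm rests on 149 counts and above 120 μm on 686, which limits what its sums can show.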
